A study of Mus musculus with 2 samples.

Results

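The proliferation genes are 10 genes whose transcripts mark dividing cells, *Mki67*, *Top2a*, *Cdk1*, *Ccnb1*, *Ccna2*, *Birc5*, *Tpx2*, *Ube2c*, *Mcm5*, and *Stil*. By gene symbol, 9 of the 10 were found among the 19465 genes of the files, and *Ccnb1* was not analysed here. Together, the 9 genes held 2550 unique molecular identifiers (UMIs) in the Control section and 3014 in the Loaded section.

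Gene expression was measured with the Visium probe assay on formalin-fixed, paraffin-embedded tissue. Probe pairs bind transcripts in a thin slice above a grid of barcoded spots, so that a spot is a small area that can hold several cells of different types. The Control and the Loaded femur each came from 1 female bone cell reporter (BCR) mouse, a line that carries fluorescent tags on *Ibsp*, expressed by osteoblasts, and *Acp5*, expressed by osteoclasts. Both mice had an osteotomy of the right femur at 12 weeks of age that was held by an external fixator, and both had bridged the defect by week 3, which was the condition for entering a group. From week 3, the Control mouse was sham-loaded and the Loaded mouse received individualized cyclic loading through the fixator, until both were euthanized 5 weeks after surgery, at 17 weeks of age.

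Spots were divided into 3 regions. Bone spots are those the study listed for its bone regions, 131 in Control and 146 in Loaded. Enclosed spots are not on that list but lie inside the convex hull drawn around it, and 217 Control and 215 Loaded spots had enough UMIs and genes to be used. The remaining spots, 1550 in Control and 1070 in Loaded, take in the rest of each section, with muscle, marrow and other tissue. The median number of UMIs per spot was between 1951 and 3478 over these 6 sets of spots. A level is given as normalized UMIs per 100 spots, that is, the summed UMIs of a region over the total of its spots' size factors, times 100. Probes differ in how well they capture their transcripts, so levels are compared between regions and sections, not between genes. Log2 ratios carry an exact 95% interval that covers counting error only. With 1 section per group there was no replicate to compare with, no test was run, and the interval does not include the variation between mice.

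Bone spots held more osteoblast transcripts than the remaining spots, and a smaller share of muscle transcripts. A list of 8 osteoblast genes, among them *Col1a1* and *Bglap*, accounted for 2.01% of UMIs in Control bone spots and 6.53% in Loaded bone spots, against 0.713% and 0.984% in the remaining spots. A list of 22 skeletal muscle genes took 16.3% of UMIs in Control bone spots and 8.47% in Loaded bone spots, against 31.1% and 20.4% in the remaining spots. A list of 10 erythroid genes accounted for 11.4% of UMIs in Control enclosed spots and 11.6% in Loaded enclosed spots, against 2.48% and 3.05% in bone spots. The enclosed spots were therefore rich in marrow transcripts in both sections.

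A cell that divides first copies its DNA in S phase and then separates the copies in mitosis, and most of the genes that carry out these steps are transcribed in that window and silent in resting cells. The replication genes rise at the start of S phase, and the mitotic genes peak later, in G2 and mitosis. In bone, the marrow holds the largest pools of dividing cells, the precursors of red cells and granulocytes, whereas osteoblasts that deposit matrix and osteocytes divide little or not at all.

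Promoters of these genes are known for shared sequence elements. A CHR element and CCAAT boxes are typical of mitotic genes, and E2F elements of replication genes. RefSeq promoters of GRCm38.p6, cut to the 250 bases before the transcript start, were matched for 7 of the 9 genes and searched on both strands for the CHR letters TTTGAA or TTCGAA, the CCAAT box letters CCAAT, and the E2F letters TTTNNCGC, in which either unnamed base had to be cytosine or guanine. The CHR letters were found in 4 of the 7 promoters, *Mki67*, *Top2a*, *Cdk1*, and *Ube2c*, and in 17.2% of 32851 promoters of the same length. The CCAAT letters were found in 6 of the 7 and in 33.9% of all promoters, and the E2F letters in *Cdk1* and *Mcm5* and in 1.86% of all promoters. None of the 3 was found in the window of *Birc5*. The promoters of the 4 genes with the CHR letters are shown with that of *Mcm5*, whose window held the E2F letters but no CHR letters, with matches to any of the 3 in capitals. They lie at chr7:135716380-135716629 (*Mki67*, minus strand), chr11:99024190-99024439 (*Top2a*, minus strand), chr10:69352913-69353162 (*Cdk1*, minus strand), chr2:164769679-164769928 (*Ube2c*, plus strand) and chr8:75109259-75109508 (*Mcm5*, plus strand), and are written 5′ to 3′ on the strand of the gene.
Mki67: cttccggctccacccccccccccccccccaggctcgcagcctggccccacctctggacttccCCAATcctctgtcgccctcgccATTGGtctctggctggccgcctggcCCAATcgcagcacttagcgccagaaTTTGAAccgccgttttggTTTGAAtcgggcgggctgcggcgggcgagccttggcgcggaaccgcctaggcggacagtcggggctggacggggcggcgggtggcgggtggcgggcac
Top2a: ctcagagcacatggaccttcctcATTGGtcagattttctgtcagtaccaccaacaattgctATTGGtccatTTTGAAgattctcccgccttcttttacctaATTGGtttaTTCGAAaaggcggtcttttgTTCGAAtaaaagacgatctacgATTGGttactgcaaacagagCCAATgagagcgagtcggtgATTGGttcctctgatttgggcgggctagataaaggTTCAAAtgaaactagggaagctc
Cdk1: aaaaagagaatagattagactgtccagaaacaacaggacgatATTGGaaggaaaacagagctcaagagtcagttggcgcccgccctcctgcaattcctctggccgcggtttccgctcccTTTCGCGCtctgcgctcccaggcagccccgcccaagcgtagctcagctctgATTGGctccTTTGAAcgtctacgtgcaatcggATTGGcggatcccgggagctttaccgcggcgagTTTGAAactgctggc
Ube2c: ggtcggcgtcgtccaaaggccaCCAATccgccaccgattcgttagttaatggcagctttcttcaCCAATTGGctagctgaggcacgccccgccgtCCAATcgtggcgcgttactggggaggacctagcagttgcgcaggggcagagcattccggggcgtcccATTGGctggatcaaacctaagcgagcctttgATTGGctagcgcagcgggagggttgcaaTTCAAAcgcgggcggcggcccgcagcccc
Mcm5: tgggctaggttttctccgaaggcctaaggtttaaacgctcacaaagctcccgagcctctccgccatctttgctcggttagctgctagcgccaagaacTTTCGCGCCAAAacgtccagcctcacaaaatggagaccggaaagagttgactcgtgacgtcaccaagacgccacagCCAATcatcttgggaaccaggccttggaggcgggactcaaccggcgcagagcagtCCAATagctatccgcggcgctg

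In *Mki67*, the CHR letters began 116 and 98 bases before the start, downstream of CCAAT letters at 188, 166 and 141. In *Cdk1*, they began at 71 and 15, with CCAAT letters at 208, 80 and 48 and the E2F letters at 131. *Top2a* held the CHR letters at 179, 140, 120 and 23, of which those at 140 and 120 read the same on both strands. In *Ube2c*, they were found once, 29 bases before the start, and the CCAAT letters 6 times, with the matches at 186 and 183 overlapping. The E2F matches of *Mcm5* at 153 and 149 overlapped on opposite strands. These matches are a description of the letters and not of binding.

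Summed over the 9 genes, the level was highest in the enclosed spots of both sections. In Control, it was 88.7 normalized UMIs per 100 spots in bone spots (154 UMIs), 431 in enclosed spots (610 UMIs) and 108 in the remaining spots (1786 UMIs). In Loaded, it was 216 in bone spots (279 UMIs), 717 in enclosed spots (1168 UMIs) and 146 in the remaining spots (1567 UMIs). The enclosed level was thus 4.85-fold that of bone spots in Control, a log2 ratio of +2.28 (2.02 to 2.54), and 3.32-fold in Loaded, +1.73 (1.54 to 1.93). Enclosed and bone spots differed far beyond counting error in both sections, whereas the remaining spots lay above bone spots in Control, +0.29 (0.05 to 0.54), and below them in Loaded, -0.57 (-0.75 to -0.38). Neither of the last directions held under every alternative, since the ratio was -0.30 (-0.53 to -0.05) in Control with library totals and +0.79 (0.39 to 1.22) in Loaded with only spots below 5% muscle share. In spots, fewer dividing cells and less RNA per dividing cell cannot be told apart.

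**Figure D1:**
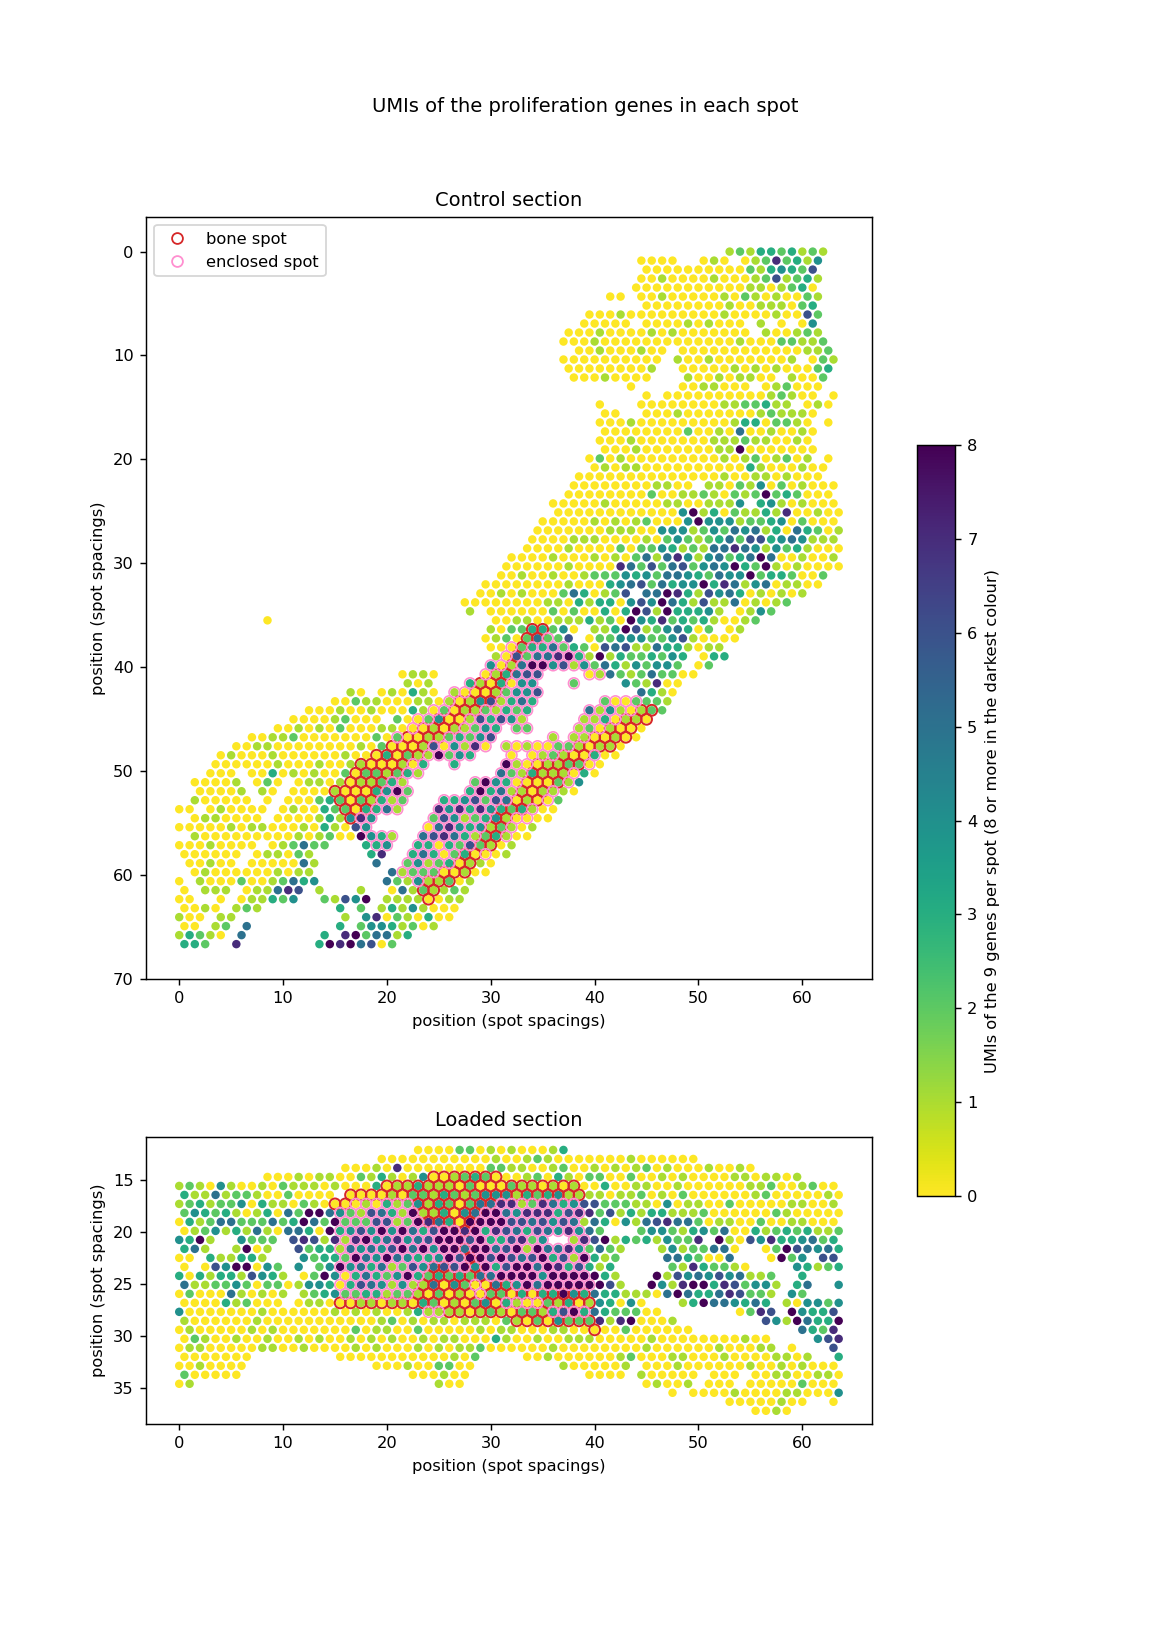
UMIs of the 9 proliferation genes in each spot of the Control section (top) and the Loaded section (bottom), with positions in spot spacings and bone and enclosed spots outlined. Spots with 3 or more UMIs gather among the enclosed spots and in strips of the remaining tissue, and the richest spots reached 15 UMIs (Control) and 17 UMIs (Loaded).

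*Mki67*, the gene of the Ki-67 protein that coats mitotic chromosomes and is the usual histological marker of cycling cells, gave 33.6% of all UMIs of the group (ENSMUSG00000031004, chr7:135689784-135716361, minus strand). Its level in Control was 31.1 in bone, 146 in enclosed and 37.6 in remaining spots (54, 207 and 620 UMIs). In Loaded, it was 74.4, 236 and 47.3 (96, 384 and 509 UMIs). All 3 regions were higher in Loaded, and the log2 ratio of Loaded over Control was largest in bone spots, +1.26 (0.76 to 1.77), followed by +0.69 (0.44 to 0.94) in enclosed and +0.33 (0.16 to 0.50) in remaining spots.

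*Mcm5* and *Stil* act before mitosis. *Mcm5* (ENSMUSG00000005410, chr8:75109569-75128439, plus strand) encodes a subunit of the helicase that unwinds DNA for replication. Its level in Control was 5.76 in bone, 15.5 in enclosed and 4.13 in remaining spots (10, 22 and 68 UMIs), and in Loaded 9.30, 23.3 and 6.60 (12, 38 and 71 UMIs). The order of the regions was that of *Mki67* for the enclosed spots, but the log2 ratio of Loaded over Control in bone spots, +0.69 (-0.65 to 2.06), was not distinguishable from 0 at these counts.

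*Stil* (ENSMUSG00000028718, chr4:115000159-115043196, plus strand) encodes a protein needed to build new centrioles, the cores of the spindle poles. It had 0 UMIs in the 131 Control bone spots and 10 UMIs in the 146 Loaded bone spots. It reached 10 UMIs, the minimum for the counts below, through Loaded alone, so no fold is given. In enclosed spots, it had 8 and 16 UMIs, levels of 5.65 and 9.83, and in the remaining spots 25 and 15 UMIs, levels of 1.52 and 1.39. Its 10 UMIs in Loaded bone spots were spread over all 4 blocks of that region, at levels of 6.13 to 15.0. The blocks are parts of 1 section each and not replicates.

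*Cdk1* and *Ccna2* encode the kinase and the cyclin that carry a cell from S phase into mitosis. *Cdk1* (ENSMUSG00000019942, chr10:69335146-69352938, minus strand) had levels of 19.6 in bone, 107 in enclosed and 26.1 in remaining spots of Control (34, 152 and 430 UMIs), and 48.8, 175 and 34.6 in Loaded (63, 285 and 372 UMIs). *Ccna2* (ENSMUSG00000027715, chr3:36564865-36572150, minus strand) had 20.7, 96.7 and 24.4 in Control (36, 137 and 402 UMIs) and 44.2, 164 and 37.7 in Loaded (57, 267 and 405 UMIs). Both were higher in Loaded in every region, beyond counting error each time. The log2 ratios were +1.32 (0.69 to 1.96) in bone, +0.71 (0.42 to 1.00) in enclosed and +0.41 (0.20 to 0.61) in remaining spots for *Cdk1*, and +1.09 (0.46 to 1.73), +0.76 (0.46 to 1.07) and +0.63 (0.42 to 0.83) for *Ccna2*.

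The other 4 genes act in mitosis. *Birc5* (ENSMUSG00000017716, chr11:117849251-117855743, plus strand) encodes survivin, part of the complex that corrects the attachment of chromosomes to the spindle. Its level was 9.22 in bone, 31.8 in enclosed and 9.29 in remaining spots of Control (16, 45 and 153 UMIs), and 24.0, 77.4 and 11.4 in Loaded (31, 126 and 123 UMIs). The log2 ratio of Loaded over Control was +1.38 (0.47 to 2.35) in bone and +1.29 (0.78 to 1.81) in enclosed spots, and +0.30 (-0.05 to 0.65) in the remaining spots, where the interval included 0.

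*Top2a* (ENSMUSG00000020914, chr11:98992943-99024189, minus strand) encodes the topoisomerase that untangles sister DNA. It had 2, 7 and 19 UMIs in bone, enclosed and remaining spots of Control, levels of 1.15, 4.94 and 1.15, and 7, 24 and 28 UMIs in Loaded, levels of 5.42, 14.7 and 2.60. It was higher in Loaded in enclosed spots, +1.58 (0.32 to 3.04), and in remaining spots, +1.17 (0.28 to 2.10), and the 9 UMIs in bone spots gave +2.23 with an interval from -0.16 to 5.54.

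*Tpx2* (ENSMUSG00000027469, chr2:152847964-152895321, plus strand) encodes a factor that assembles spindle microtubules and activates Aurora A kinase. It had 2, 7 and 21 UMIs in bone, enclosed and remaining spots of Control and 0, 19 and 21 UMIs in Loaded, with levels of 4.94 and 11.7 in enclosed spots. The log2 ratio in enclosed spots was +1.24 (-0.07 to 2.73). In bone spots, both counts were below the 3 UMIs that set the floor, and no ratio is given.

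*Ube2c* (ENSMUSG00000001403, chr2:164769898-164778822, plus strand) encodes the ubiquitin-conjugating enzyme that works with the anaphase-promoting complex to degrade mitotic cyclins. It differed from the other genes in direction. In enclosed spots, it had 25 UMIs in Control and 9 in Loaded, levels of 17.6 and 5.53, a log2 ratio of -1.67 (-2.96 to -0.53). In the remaining spots, it had 48 and 23 UMIs, levels of 2.91 and 2.14, and a ratio of -0.45 (-1.23 to 0.30). In bone spots, it had 0 UMIs in Control and 3 in Loaded, and no ratio is given. *Ube2c* was the only one of the 9 genes with fewer normalized UMIs in Loaded than in Control in enclosed spots, and in the remaining spots *Stil*, at -0.12 (-1.15 to 0.86), was also below 0.

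**Figure D2:**
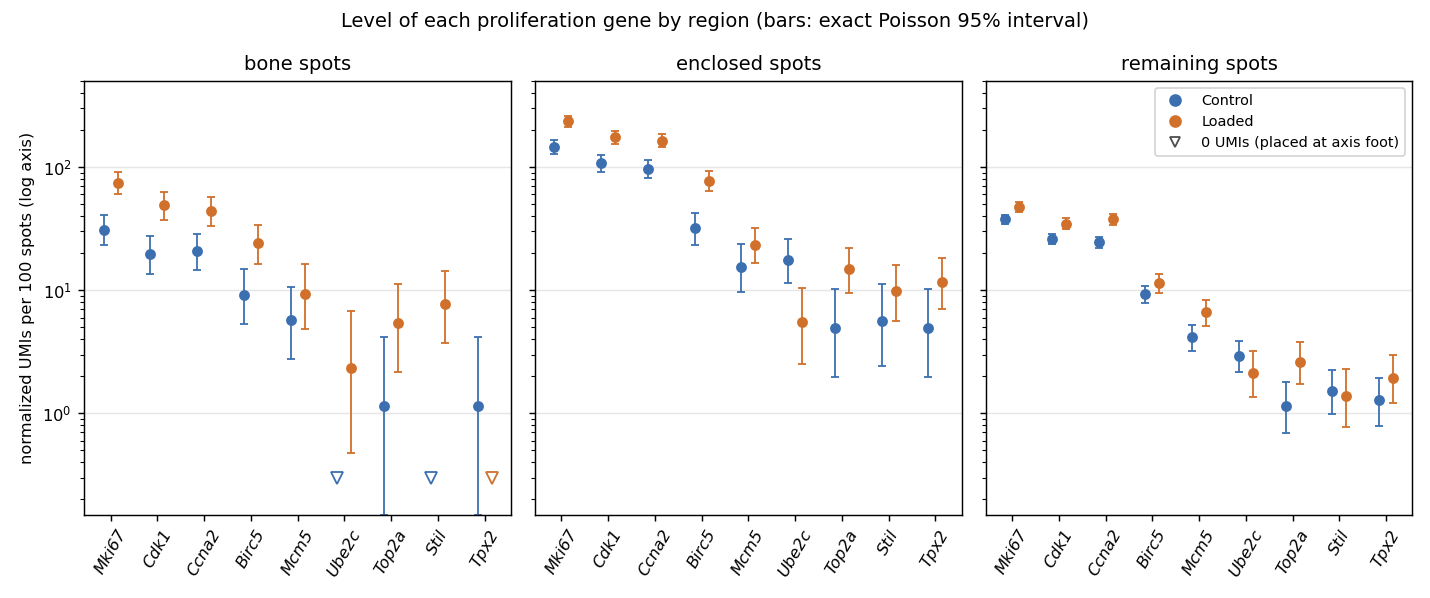
Levels of the 9 genes in bone, enclosed and remaining spots, in normalized UMIs per 100 spots on a log axis, with points for Control and Loaded, bars for the exact Poisson 95% interval, and open triangles for genes with 0 UMIs. For *Mki67*, *Cdk1*, *Ccna2*, and *Birc5* the Loaded point lies above the Control point in all 3 regions, and for *Ube2c* it lies below in enclosed and remaining spots.

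Summed over the 9 genes, Loaded exceeded Control in all 3 regions, by a log2 ratio of +1.28 (1.00 to 1.58) in bone spots, +0.74 (0.59 to 0.88) in enclosed spots and +0.43 (0.33 to 0.52) in the remaining spots. In the remaining spots, this direction turned with only spots below 5% muscle share, -0.38 (-0.60 to -0.16), and the ratio was 0.0041 with equal weight for every spot. A gene was counted as higher or lower when it had at least 10 UMIs in the spots compared, a ratio of at least 2-fold and an interval that left out 0. In bone spots, 6 of the 9 genes had enough UMIs. *Stil* reached the minimum only through its 10 UMIs in Loaded and is left out of the count. Of the other 5 genes, *Mki67*, *Cdk1*, *Ccna2*, and *Birc5* were higher in Loaded and 0 were lower. Of 8901 genes left after the same filter, 7.70% were higher and 4.15% were lower. The median log2 ratio was +1.26 over these 5 genes of the group and +0.12 over the 8901 genes. Without *Mki67* or any other single gene of the group, the summed ratio in bone spots stayed between 1.23 and 1.34.

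In enclosed spots, all 9 genes had enough UMIs. *Top2a* and *Birc5* were higher and *Ube2c* was lower in Loaded by this rule, against 3.96% higher and 6.52% lower over 10995 genes, and the median was +0.76 over the 9 genes and -0.01 over all genes. In the remaining spots, *Top2a* was higher and 0 of the 9 genes were lower, against 3.11% and 3.86% of 15218 genes, with medians of +0.41 and 0.00. The 3 genes with the most UMIs were above 0 with intervals that left out 0 in every region, also where they did not reach 2-fold.

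**Figure D3:**
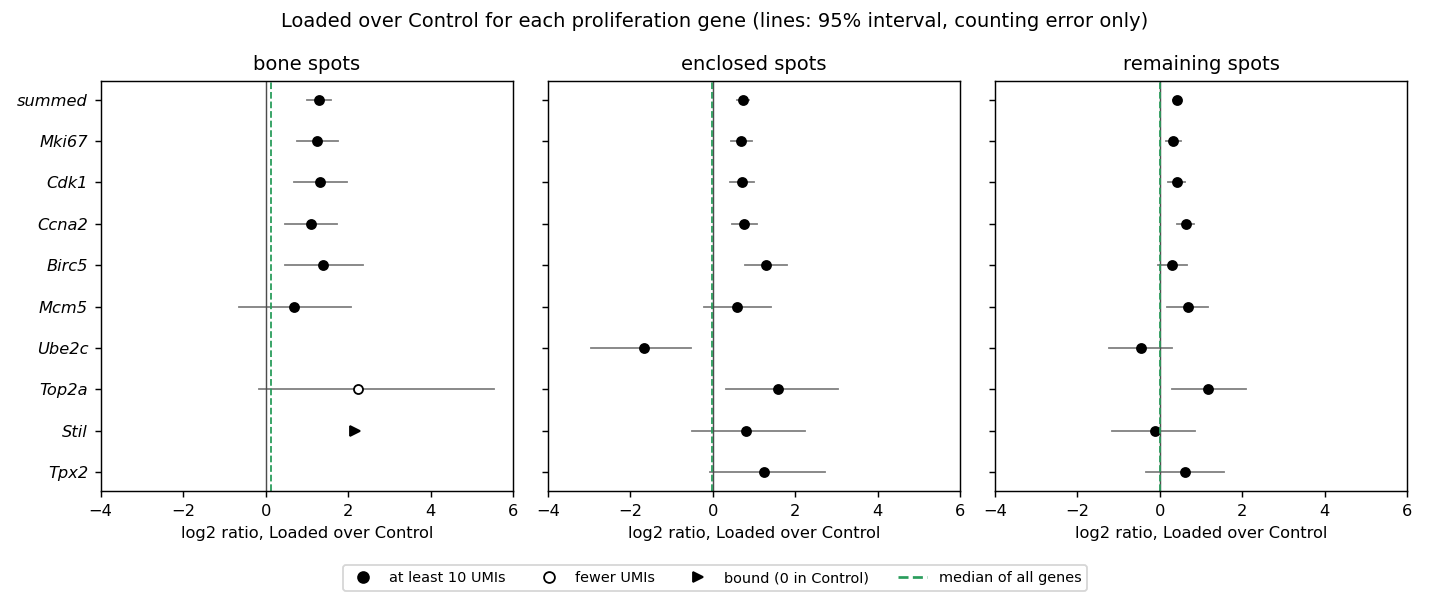
Log2 ratio of Loaded over Control for the summed group and each gene in bone, enclosed and remaining spots, with 95% intervals for counting error, open points for fewer than 10 UMIs, and the median of all genes as a dashed line. In bone spots the ratios of the 5 genes counted lie between 0.69 and 1.38. *Stil* is drawn there as an arrowhead, with its 0 Control UMIs set to 3. *Ube2c* in enclosed spots lies at -1.67.

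Between regions of 1 section, *Ube2c* in Control and *Tpx2* and *Ube2c* in Loaded reached the minimum only through the enclosed spots and are left out of the counts. Of the other genes with enough UMIs, 5 of 5 were higher in enclosed than in bone spots in Control and 6 of 7 in Loaded. Of all genes left after the same filter, 9.73% of 9180 were higher in Control and 7.95% of 9007 in Loaded. Lower in enclosed spots were 0 of these genes in either section, against 2.87% of all genes in Control and 6.86% in Loaded. The median log2 ratio was +2.22 over the 5 genes in Control and +1.67 over the 7 in Loaded, with all genes left at +0.07 and -0.04. *Ube2c* had 25 UMIs in enclosed and 0 in bone spots of Control, and *Tpx2* had 19 and 0 in Loaded. Both passed the minimum through the enclosed spots alone, so no fold is given. *Stil* and *Ube2c* in Loaded did not reach the rule, at +0.34 (-0.89 to 1.65) and +1.25 (-0.75 to 3.77). Of the remaining over bone ratios, 0 of 9 genes met the rule in Control, where 7.11% of 13930 genes were higher and 5.71% lower, and in Loaded *Birc5*, -1.07 (-1.65 to -0.45), and *Stil*, -2.47 (-3.72 to -1.16), were lower and 0 higher, against 6.09% lower and 5.31% higher of 12833 genes.

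Granulocyte genes, like the group, were higher in Loaded bone spots. The 10 granulocyte genes, such as *Camp* and *S100a8*, accounted for 0.0870% of UMIs in Control bone spots and 0.371% in Loaded bone spots, and 9 of the 10 were higher in Loaded, with a median log2 ratio of +1.98. *Camp*, which encodes the antimicrobial peptide cathelicidin, had a level of 121 in Control and 536 in Loaded bone spots, and *S100a8*, a calcium-binding protein of neutrophils, 37.5 and 213. Single bone spots had shares of up to 0.630% in Control and of up to 1.55% in Loaded. Of the 8 erythroid genes with enough UMIs, 0 met the rule, and their median was +0.33. Of the 6 granulocyte precursor genes with enough UMIs, 2 were higher, with a median of +1.06, and 1 of 4 B lineage genes and 0 of 3 genes of stem and progenitor cells. Of 5 megakaryocyte genes, 4 were higher, with a median of +2.01, and 7 of the 8 osteoblast genes were higher, with a median of +1.95. Of the 22 skeletal muscle genes, 10 were lower and 0 higher, with a median of -0.93. Over all 10003 genes with enough UMIs, 8.49% were higher and 4.69% lower, with a median of +0.12. Without genes that reached 10 UMIs only through the section where they were higher, 9 of 9 granulocyte and 3 of 3 megakaryocyte genes were higher. Of the 8901 genes left after that filter, 7.70% were higher. The other lists were not counted in this way here. The part of granulocyte, megakaryocyte, osteoblast and muscle transcripts in the ratios of the group was not tested.

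With spots grouped into bins of equal granulocyte share, a comparison chosen after the values were seen, the ratio of Loaded over Control in bone spots was -0.21 (-0.57 to 0.16) instead of +1.28. Bins of the erythroid share gave +1.12 (0.82 to 1.41), and bins of all 4 marrow lists +0.99 (0.70 to 1.28). Most UMIs of the 4 lists were erythroid, so these last 2 orders of the spots are much alike. At equal granulocyte share, the interval included 0. With 1 section per group, granulocyte content and loading cannot be told apart. The Control section had 0 bone spots in the highest of the 8 granulocyte bins, and Loaded had 29, with a level of 452. Those 29 spots held 116 of the 279 UMIs of the group in Loaded bone spots. They had no Control bone spots in their bin to be compared with, so the ratio in bins does not cover the same spots as +1.28. In the enclosed spots, the ratio was +0.15 (-0.01 to 0.31) at equal granulocyte share and +0.36 (0.21 to 0.50) at equal share of the 4 lists. In the remaining spots, it was -0.10 (-0.20 to 0.00) and -0.11 (-0.21 to -0.01), against +0.43 without bins.

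Over whole sections, the group followed the share of UMIs taken by the 4 marrow lists together (erythroid, granulocyte, granulocyte precursor and B lineage genes, none of them a proliferation gene). Erythroid genes gave 156929 of the 165104 UMIs of these lists in Control and 157744 of 172821 in Loaded. The marrow share is therefore largely an erythroid share. With all spots of both sections ordered by that share and cut into 10 bins, the level in Control rose from 9.19 normalized UMIs per 100 spots in the lowest bin (61 UMIs, 326 spots) to 830 in the highest (786 UMIs, 206 spots). In Loaded, it went from 18.1 in the second bin (36 UMIs, 129 spots) to 831 in the highest (659 UMIs, 127 spots), and the lowest bin held 2 UMIs in 7 spots. The 2 sections had nearly the same level at the upper end, with log2 ratios of -0.02 (-0.19 to 0.14) and 0.00 (-0.15 to 0.15) in bins 9 and 10. In between, Loaded was lower in the fifth bin, -0.52 (-0.95 to -0.11), and higher in the sixth, +0.54 (0.23 to 0.85), and the eighth, +0.21 (0.02 to 0.39). The 5 upper bins held 47.1% of spots and 85.6% of the group's UMIs in Control, and 53.7% and 90.0% in Loaded.

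**Figure D4:**
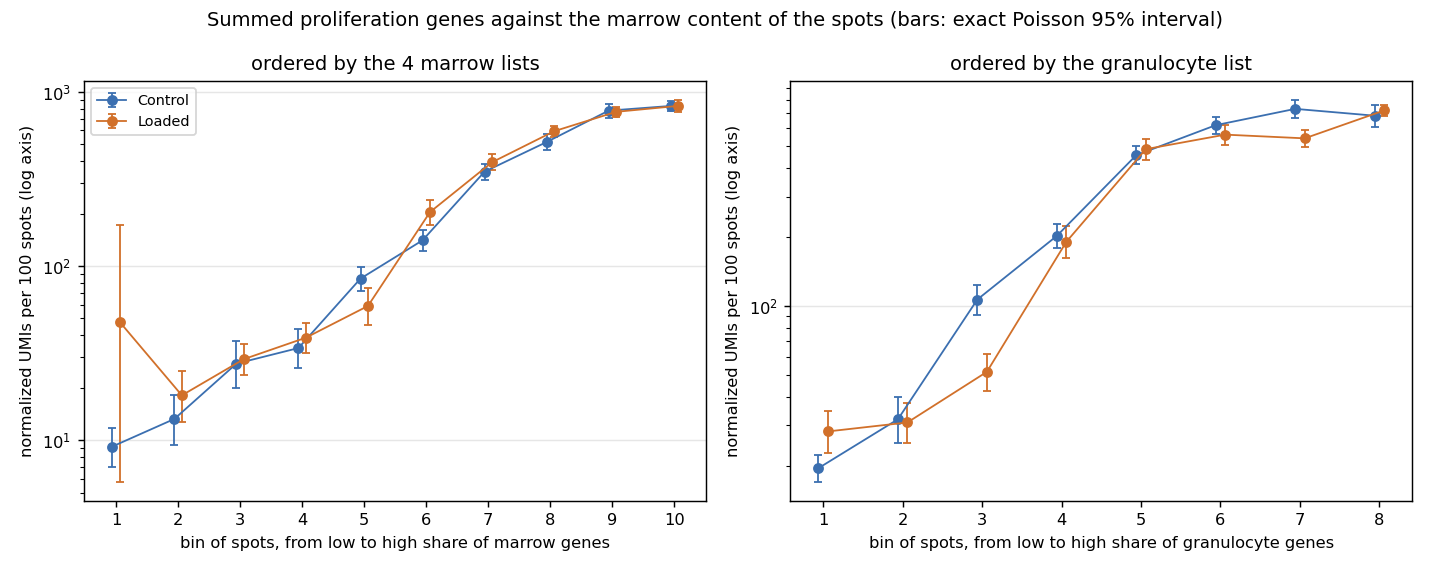
Summed level of the 9 genes, in normalized UMIs per 100 spots on a log axis, in bins of spots ordered by their share of UMIs from the 4 marrow lists (left) or the granulocyte list alone (right, 8 bins because of ties at 0), with exact Poisson 95% intervals. By marrow share, both sections rise to nearly the same level, 830 in Control and 831 in Loaded, in the highest bin.

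Within the bone spots, the same order was present. With the bone spots of both sections cut into 3 equal groups by marrow share, the level from the lower to the upper group was 45.3, 87.3 and 230 in Control (45, 38 and 71 UMIs) and 79.6, 216 and 401 in Loaded (43, 76 and 160 UMIs). The upper over the lower group had a log2 ratio of +2.35 (1.79 to 2.92) in Control and +2.34 (1.84 to 2.86) in Loaded, and Loaded exceeded Control in each group, by +0.81 (0.17 to 1.45), +1.31 (0.73 to 1.91) and +0.80 (0.39 to 1.23). By granulocyte share, the 3 groups had levels of 55.9, 123 and 397 in Control and 62.8, 150 and 336 in Loaded, and Loaded over Control was +0.17 (-0.61 to 0.89), +0.28 (-0.30 to 0.86) and -0.24 (-0.78 to 0.34). The upper granulocyte group held 14 of the 131 Control and 79 of the 146 Loaded bone spots.

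Bone cell genes did not follow the group in this way. By the share of the osteoblast list, the 3 groups of bone spots had levels of 103, 80.7 and 41.1 in Control and 230, 334 and 155 in Loaded. Spots with the most osteoblast transcripts thus had the lowest level of proliferation genes in both sections. The upper group held 12 Control spots (9 UMIs) and 80 Loaded spots (122 UMIs). The lower group held 77 Control spots (104 UMIs) and 16 Loaded spots (24 UMIs). The upper over the lower group was -1.33 (-2.50 to -0.35) in Control and -0.57 (-1.21 to 0.13) in Loaded, where the interval included 0. By the share of 7 osteoclast genes, which include *Ctsk* and *Acp5*, the upper over the lower group was -0.16 (-0.78 to 0.45) in Control and +0.18 (-0.29 to 0.67) in Loaded. In each group by osteoblast share, Loaded exceeded Control, by +1.16 (0.45 to 1.81), +2.05 (1.53 to 2.59) and +1.91 (0.94 to 3.08).

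Outside the bone region, the genes were found mainly in marrow-rich spots. Remaining spots with at least 5% of UMIs from the marrow lists had a level of 789 in Control (356 spots, 1176 UMIs) and 690 in Loaded (321 spots, 1107 UMIs). The other remaining spots had 40.7 in Control (1194 spots) and 50.3 in Loaded (749 spots). The marrow-rich spots made up 23.0% of the remaining Control spots and 30.0% of the remaining Loaded spots and held 65.8% and 70.6% of the group's UMIs there. The level of marrow-rich spots outside the fracture site was above that of the enclosed spots in Control (431) and close to it in Loaded (717). The enclosed spots were taken without a cut on marrow share. In the 2 highest bins of marrow share described above, enclosed spots had 622 and 700 in Control, and remaining spots 863 and 966. In Loaded, enclosed spots had 799 and 828, and remaining spots 734 and 835.

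By distance from bone, the level in enclosed spots of Control was lowest next to bone. Enclosed spots are set by the hull alone, and single ones had muscle shares of up to 34.1% in Control and 12.0% in Loaded. In Control, enclosed spots next to a bone spot had a level of 223 (165 UMIs, 88 spots), and those farther in had 637, 720 and 607 at up to 2, 3 and 5 spot spacings. In Loaded, the level was 638 next to bone (379 UMIs, 71 spots) and 796, 684 and 789 farther in. The median marrow share of the spots next to bone was 7.60% in Control and 8.73% in Loaded. Without the enclosed spots next to bone, Loaded over Control in enclosed spots was +0.22 (0.05 to 0.39) instead of +0.74. On the outer side, spots next to bone had 48.5 in Control and 76.9 in Loaded, and the level reached 124 and 175 at more than 10 spacings.

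**Figure D5:**
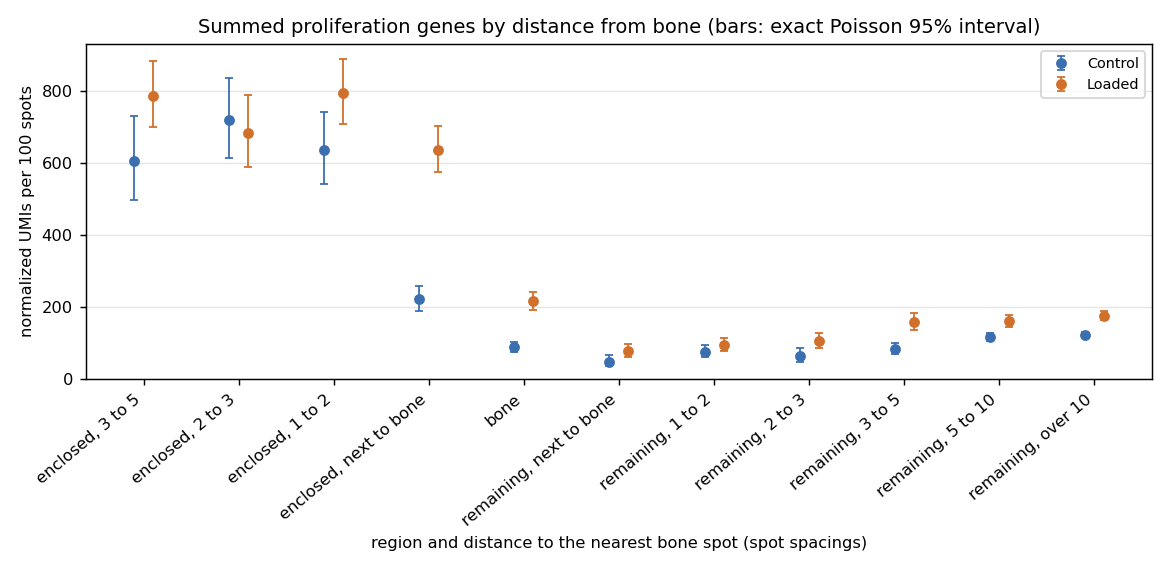
Summed level of the 9 genes, in normalized UMIs per 100 spots, by region and distance to the nearest bone spot in spot spacings, with exact Poisson 95% intervals. Enclosed spots 5 to 10 spacings from bone (3 in Control, 1 in Loaded) are not drawn. The largest gap between the sections is in enclosed spots next to bone, at 223 in Control and 638 in Loaded.

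Inside the bone regions, the level varied with position. Each region was divided into 4 blocks, by side of the long axis and by end. In Control, 3 blocks had levels of 53.1, 68.8 and 98.3, and the fourth, of 21 spots with the highest median marrow share (6.25%), had 408 (296 to 547, 44 UMIs). The Loaded blocks had 181, 209, 251 and 353, so that the blocks of the sections overlapped through this 1 Control block. Without it, Loaded over Control in bone spots was +1.68, and without the Control block of 43 spots, which had the lowest level, it was +0.91.

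The UMIs were spread over many spots. After thinning to 1000 UMIs per spot, 26.7% of Control bone spots (19.4 to 35.1) and 53.4% of Loaded bone spots (44.5 to 62.2) had at least 1 UMI of the group. The share was 70.8% (64.1 to 76.8) and 85.3% (79.8 to 89.8) in enclosed spots, and 30.6% and 35.8% in the remaining spots. Remaining and enclosed spots with a muscle share of at least 10% gave 14.2% (11.9 to 16.7) in Control and 19.3% (16.3 to 22.5) in Loaded. Their median depths were 5748 and 3577 UMIs, and no limit was set on their marrow share. Bone spots were above these muscle spots in both sections at this depth. Thinned to 500 UMIs, Control bone spots gave 14.5% (8.96 to 21.7), which is not distinguishable from the 13.9% (11.8 to 16.2) of Control muscle spots, while Loaded bone spots gave 26.0% (19.1 to 33.9) against 11.8% (9.47 to 14.4). Thinning to 1000 UMIs left out 0 Control and 15 Loaded bone spots, 5 and 4 enclosed spots, 251 and 57 remaining spots, and 162 and 38 muscle spots. Without thinning, the shares were 64.1% and 72.6% in bone, 84.3% and 96.3% in enclosed, 46.5% and 53.1% in remaining and 35.0% and 38.6% in muscle spots.

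Some spots held several of the genes. At least 3 of the 9 genes were present in 12 of 131 bone spots in Control and 27 of 146 in Loaded, and in 69 of 217 and 137 of 215 enclosed spots. The richest spot had 6 different genes in Control and 8 in Loaded. The 10% of spots with the most UMIs of the group held 33.1% and 33.3% of the group's UMIs in bone spots and 48.4% and 44.9% in the remaining spots. These counts are not thinned and rise with the depth of the spot.

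Other genes of the cell cycle were taken from lists of genes of DNA replication and S phase, of G2 and mitosis and of cell cycle exit. In bone spots, 8 of 21 replication genes with enough UMIs were higher in Loaded and 0 lower, with a median of +1.11, and 3 of 16 genes of G2 and mitosis were higher and 0 lower, with a median of +0.43, against 8.49% higher, 4.69% lower and a median of +0.12 over all genes. Without genes that reached 10 UMIs only through the section where they were higher, 6 of 13 and 3 of 10 were higher, against 7.70% of 8901 genes. *Slbp*, which binds histone mRNA, had levels of 28.2 and 65.1 in Control and Loaded bone spots, +1.21 (0.68 to 1.74), *Rrm1*, a subunit of ribonucleotide reductase, 7.49 and 28.7, +1.94 (0.99 to 2.97), and the helicase subunit *Mcm2* 7.49 and 18.6, +1.31 (0.28 to 2.41). In the mitotic list, *Cdca3*, *Cdca8*, and *Cenpa* were the 3 higher genes, the last 2 named after their values were seen. *Cdca3* had levels of 12.1 and 32.5, +1.43 (0.64 to 2.26), and *Ccnf* 15.0 and 21.7, +0.53 (-0.29 to 1.36). *Pttg1*, the securin that inhibits separase until anaphase, had the most UMIs of its list and did not follow it, at 43.2 in Control and 29.4 in Loaded bone spots, -0.55 (-1.16 to 0.03).

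In enclosed over bone spots, 15 of 22 replication genes and 16 of 25 mitotic genes were higher in Control and 8 of 25 and 14 of 28 in Loaded. Higher over all genes were 11.3% in Control and 8.95% in Loaded. In each of the 4 counts 0 were lower, against 2.87% of all genes in Control and 6.86% in Loaded. Without genes that reached 10 UMIs only through the higher set of spots, 9 of 15 and 8 of 13 were higher in Control and 7 of 21 and 11 of 20 in Loaded, against 9.73% and 7.95% of all genes. *Slbp* was higher by +2.34 (1.88 to 2.82) in Control and +1.54 (1.19 to 1.91) in Loaded, and *Cdca3* by +2.84 (2.17 to 3.59) and +2.34 (1.87 to 2.85). *Pttg1* was at -0.65 (-1.25 to -0.07) and +0.09 (-0.54 to 0.74). In Loaded over Control, genes that reached 10 UMIs only through the higher section were also left out. Of the others, 3 of 25 replication and 2 of 26 mitotic genes were higher in enclosed spots, against 3.72% of all genes. In the remaining spots, 0 of 28 and 1 of 31 were higher, against 3.005%. The mitotic counts are near these shares. Lower in the remaining spots was 1 of the 28 replication genes, against 3.75% of all genes.

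In the list of cell cycle exit, few genes met the rule. *Cdkn1a*, which encodes the kinase inhibitor p21, had its highest level in Control bone spots, 248, with 171 in enclosed and 108 in remaining spots, and 157, 74.3 and 113 in Loaded. Loaded over Control was -0.67 (-0.91 to -0.42) in bone, -1.20 (-1.53 to -0.88) in enclosed and +0.06 (-0.04 to 0.17) in remaining spots. Of the 10 genes of the list with enough UMIs in bone spots, 0 were higher in Loaded, against 8.49% of all genes, and the median was -0.11. *Cdkn2b*, named after its value was seen, was at -2.90 (-8.33 to -0.08) on 11 UMIs. It reached the minimum only through Control and is left out of the count of lower genes. Of the other genes, 0 were lower, against 4.15% of 8901 genes left after the same filter. *Rbl2*, -0.20 (-0.88 to 0.46), and *Cdkn1c*, -0.46 (-1.19 to 0.24), had intervals that included 0.

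The pattern of the group was compared with that of other genes over square tiles of 5 spot spacings that held at least 20000 UMIs, 82 in Control and 64 in Loaded. Values were log2 of UMIs per 1000000 plus 10, so that tiles of 1 section share a library and a base composition, and each gene's value depends on what else the tile holds. The 3 proliferation genes with the most UMIs each had a Pearson correlation with the sum of the other members of 0.918 to 0.957 in Control and 0.888 to 0.918 in Loaded, and the sparsest, *Tpx2*, 0.460 and 0.621. Of 4270 other genes with at least 200 UMIs in each section, the 8 most like the sum were *Hist1h3c*, *Hist1h1a*, *Hist1h2bb*, *Hist2h2bb*, *Hba-a2*, *Hist1h1d*, *Hbb-bs*, and *Car2*, each with correlations of at least 0.950 in both sections. The 5 histone genes supply new chromatin in S phase, *Hba-a2* and *Hbb-bs* encode haemoglobin chains, and *Car2* encodes a carbonic anhydrase of red cells and osteoclasts. Histone and haemoglobin genes have near-identical copies, so that their probes may not separate the copies. With tiles of 4 or 6 spacings, 4 and 5 of the 8 genes were again among the first 8.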

How the data were processed

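Spatial gene expression of 1 Control and 1 Loaded femur section was analysed from the raw UMI counts per gene and spot that the authors deposited, made with SpaceRanger 2.0.0 and without normalization (build mm10 in the submitters' processing notes). Spots below 500 UMIs or 250 genes were left out. Bone spots came from the barcodes listed by the study, all of which were found. Of 2841 barcodes under tissue, 557 occurred in both sections, since slides share a barcode grid. Size factors were fitted with scran 1.30.0 (R 4.3.3) over all kept spots of both sections, as the authors normalized with scran. Their test over spots was not repeated, and columns holding the authors' own comparisons were not used. Sums, shares and ratios carry exact Poisson, binomial and conditional binomial 95% intervals (Python 3.11.15, scipy 1.17.1). A sum of 0 was set to 3 UMIs for a ratio, which is not the lower end of its 95% interval. Gene coordinates are those of GENCODE M21 (GRCm38), in which 19451 of 19465 identifiers were found. Named genes are all members, the 3 genes with most UMIs of each other list described, and the 8 genes most like the summed members. Members and lists were chosen with earlier results of these data known. The alternatives replaced the size factors by library totals, by edgeR's TMM factors (version 4.0.16, used for nothing else) or by totals without muscle genes and the 20 most abundant genes, or used no filter on spots, equal weight for every spot, spots with a muscle share below 5%, size factors fitted on bone spots, and blocks or members left out. On simulated counts with known changes, 96.8% of intervals for Loaded over Control in bone spots held the true value (9994 genes). Of the changes, 48.9% of 2-fold and 88.2% of 4-fold ones were called, and 1.90% of unchanged genes were called. The simulation held counting error only, without variation between spots or mice, and so checks the calculation alone.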

Additional observations from a re-analysis of the deposited data

Results flagged for a closer look

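The summed proliferation genes took opposite directions in the 2 sections when the remaining spots were set against bone spots. The log2 ratio of remaining over bone spots was +0.29 (0.05 to 0.54) in Control, at levels of 108 and 88.7 normalized UMIs per 100 spots, and -0.57 (-0.75 to -0.38) in Loaded, at levels of 146 and 216. With 1 section per group, the difference between the 2 ratios was not tested. In Control, 7 of the 9 genes were above 0, against 50.9% of 13930 genes, and in Loaded 0 of 9, against 43.0% of 12833 genes. Genes at 0 UMIs in bone spots (*Stil* and *Ube2c* in Control, *Tpx2* in Loaded) were set to 3 UMIs there, which fixes no direction for *Stil* and *Tpx2*. The interval left out 0 for only 1 gene in Control, *Ube2c*, and for 4 genes in Loaded. Neither direction held under every alternative.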

How the results depend on the processing

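No paired analysis was possible because each group is 1 section and the labels give no replicate numbers that pair sections. Log2 ratios of the summed genes depended most on how spots were weighted and chosen. With equal weight for every spot, Loaded over Control was 0.89 in bone, 0.43 in enclosed and 0.0041 in remaining spots, enclosed over bone was 2.001 in Control and 1.53 in Loaded, and remaining over bone was 0.93 and 0.044. With only spots below 5% muscle share, Loaded over Control was 2.09 in bone and -0.38 in remaining spots, enclosed over bone was 3.57 in Control and 2.23 in Loaded, and remaining over bone 3.27 and 0.79. Library totals gave 0.82 for Loaded over Control in remaining spots, and -0.30 in Control and -0.77 in Loaded for remaining over bone. TMM factors gave 2.01 for enclosed over bone in Control and 0.66 and -0.13 for remaining over bone in Control and Loaded. Totals without muscle and the most abundant genes gave 0.59 for Loaded over Control in remaining spots and 0.0038 for remaining over bone in Control. Without enclosed spots next to bone, Loaded over Control in enclosed spots was 0.22, and enclosed over bone in Control 2.89.

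In bins of equal marrow content, added after the data were seen, Loaded over Control was 0.99 (marrow), 1.12 (erythroid) and -0.21 (granulocyte, below 0) in bone, 0.36, 0.41 and 0.15 in enclosed, and -0.11, -0.062 and -0.10 in remaining spots. The highest granulocyte bin held no Control bone spots. Tiles of 4 and 6 spacings were also added after the data were seen. With each block left out in turn, Loaded over Control in bone was between 0.91 and 1.68, enclosed over bone between 1.91 and 2.67 (Control) or 1.54 and 1.84 (Loaded), and remaining over bone between -0.084 and 0.68 (Control) or -0.76 and -0.46 (Loaded). With each gene left out in turn, no ratio changed direction. The cause of these shifts was not tested.

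The share of spots with a UMI of the group depended on depth. Thinned to 500 UMIs, it was 14.5%, 52.1% and 23.5% in bone, enclosed and remaining spots of Control and 26.0%, 61.4% and 24.1% in Loaded, and without thinning 64.1%, 84.3% and 46.5%, and 72.6%, 96.3% and 53.1%. With at least 20 UMIs per gene, 9 instead of 16 mitotic genes were higher in enclosed than in bone spots of Control, since fewer genes were counted. The depth limits *Top2a*, *Tpx2*, *Ube2c*, and *Stil* most, which had 70 to 108 UMIs each over both sections.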

Other observations

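The proliferation genes were also set beside other cell types over the tiles of 5 spot spacings (82 in Control, 64 in Loaded). Among the marrow lists, the Pearson correlation of log2 UMIs per 1000000 plus 10 with the sum of the group was 0.956 and 0.974 for erythroid genes, 0.959 and 0.950 for granulocyte genes, 0.947 and 0.918 for granulocyte precursor genes, and 0.930 and 0.872 for B lineage genes, in Control and Loaded respectively. Plasma cell genes had 0.706 and 0.883 and megakaryocyte genes 0.815 and 0.680. Osteoblast genes had 0.618 and 0.466, osteoclast genes 0.684 and 0.649, and macrophage genes 0.527 and 0.167. Skeletal muscle genes had -0.700 and -0.789. Tiles of 1 section share a library, and the values are shares of the same total, so that a tile rich in muscle transcripts has less room for all other genes.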
